A study of Mus musculus with 15 samples.

Results

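The genes Dio2, Slc16a10, Thra and Thrb, which set how thyroid hormone is activated, carried and read, were followed in brown adipose tissue. They were taken by symbol from a table of 24030 gene symbols, all 4 were found there, and all 4 were among the 15083 genes that passed the filter on low counts. Brown adipose tissue is the fat depot that makes heat, and its RNA was sequenced in bulk from mice with a deletion of DJ-1 (gene Park7) specific to this tissue and from flox mice without the deletion. The design crossed genotype with housing temperature, asking what the deletion does at each temperature. The groups were DJ-1 knockout (KO) at 29 °C with 3 libraries, flox control (labelled WT) at 29 °C with 4, KO at room temperature with 4 and WT at room temperature with 4, each housed for 8 weeks. Age, sex, strain and the promoter that drove the deletion are not stated in the sources used here. The labels do not say that each library is a separate animal, so p-values measure only the spread between these samples, which may be technical.

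Thyroid hormone leaves the thyroid mostly as the prohormone T4. The selenoenzyme type 2 deiodinase (Dio2) turns T4 into active T3 inside the cell, and in brown fat this step is known to be raised by noradrenaline through cAMP. Membrane carriers such as Mct10 (Slc16a10) move thyroid hormone across the cell membrane, and T3 then acts through the nuclear receptors TRα (Thra) and TRβ (Thrb), which pair with retinoid X receptors on DNA. Ucp1, the uncoupling protein of brown fat, is a classical target of T3 together with noradrenaline.

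In GRCm38, Dio2 lies on the minus strand at chr12:90724552-90738438, Slc16a10 on the minus strand at chr10:40033532-40142258, Thra on the plus strand at chr11:98740638-98769006 and Thrb on the plus strand at chr14:17660261-18038090. The 250 bases before the RefSeq start site (GRCm38.p6) are printed for Dio2 and Slc16a10, the 2 members with the largest fold change between genotypes at 29 °C, read 5′ to 3′ on the gene's strand. Capitals mark the full cAMP response element TGACGTCA. The Dio2 window is chr12:90739039-90739288, minus strand, and the Slc16a10 window is chr10:40142255-40142504, minus strand.
Dio2: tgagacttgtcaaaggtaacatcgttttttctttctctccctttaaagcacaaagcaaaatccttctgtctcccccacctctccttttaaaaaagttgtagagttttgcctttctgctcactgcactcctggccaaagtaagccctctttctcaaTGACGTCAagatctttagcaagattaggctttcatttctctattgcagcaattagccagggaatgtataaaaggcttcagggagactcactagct
Slc16a10: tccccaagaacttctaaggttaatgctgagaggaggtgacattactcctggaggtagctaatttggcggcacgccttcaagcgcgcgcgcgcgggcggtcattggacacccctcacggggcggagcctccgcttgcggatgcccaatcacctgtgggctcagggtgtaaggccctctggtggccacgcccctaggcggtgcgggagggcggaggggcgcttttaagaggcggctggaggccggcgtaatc
The Dio2 window held the full element once, starting 95 bases upstream of the start site, whereas 1.55% of 32851 RefSeq windows of the same length held it on either strand. The half-site TGACG matched Dio2 at 2 places, both within that element, and 17.8% of windows held a half-site. The nuclear receptor half-site AGGTCA (14.0% of windows) and the E-box CACGTG (6.02%) had no match in the Dio2 window. Slc16a10 held none of the 4 motifs on either strand. In 1 of the 2 Thrb windows TGACG and AGGTCA matched once each, and in the other CACGTG matched once. Promoters were matched for 3 of the 4 members (Dio2, Slc16a10 and Thrb). A match of letters is a description, not evidence of binding.

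Values are CPM, counts scaled to a common library size with TMM factors, and effects are log2 fold changes ± SE from 1 edgeR quasi-likelihood fit of all 15 libraries. A gene was called at a Benjamini-Hochberg adjusted p under 0.05 over the 15083 genes. Total counts were 23977448 to 26789246 for all libraries but KO at 29 °C replicate 1, which had 38800967. TMM factors were 0.8694 to 0.9466 at room temperature and 1.001 to 1.207 at 29 °C, so levels compared between temperatures rest on this scaling. No setting left such scaling out, and its part in the temperature differences was not tested. Park7 measured 25.4 to 35.2 CPM in KO against 103.7 to 128.1 CPM in WT at 29 °C, and 24.98 to 34.07 CPM in KO against 108.1 to 111.8 CPM in WT at room temperature, so every library matched its genotype label. All 8 brown adipocyte markers were detected, and together they took 1.86 to 2.12% of counts in KO and 1.07 to 1.18% in WT at 29 °C, and 1.52 to 2.26% in KO and 1.94 to 2.05% in WT at room temperature. Some libraries stood apart by skeletal muscle transcripts. The 12 muscle markers summed to 0.0584% and 0.193% of counts in KO at 29 °C replicates 2 and 3 and to 0.161% in WT at 29 °C replicate 2, against 0.00134% in KO at 29 °C replicate 1 and at most 0.0004% in every other library. None of the 12 was called between KO and WT at 29 °C by edgeR or DESeq2, and 0 had an unadjusted p under 0.05. Their median log2 fold change there was 1.03, and libraries of a group differed widely (Acta1 137.6 ± 151.6 CPM in KO and 50.34 ± 99.39 CPM in WT, SD). The absence of calls therefore does not show equal muscle content. Between temperatures 9 were called higher at 29 °C than at room temperature in KO and 9 in WT (12 each by DESeq2). At room temperature Pvalb was at 0 in both genotypes, Ckm in KO and Myh4 in WT.

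At 29 °C, Dio2, Slc16a10 and Thrb were higher in KO than in WT. Between 29 °C and room temperature, only the 2 receptor genes were called lower at 29 °C in KO, whereas all 4 genes were lower at 29 °C in WT. Between genotypes at room temperature none of the 4 was called. Among all genes, 44.7% were called between KO and WT at 29 °C (24.7% higher and 20.0% lower in KO) and 0.239% between KO and WT at room temperature (0.0530% higher and 0.186% lower). Between 29 °C and room temperature 46.0% were called in KO (24.3% higher and 21.7% lower at 29 °C) and 68.8% in WT (35.9% higher and 32.8% lower). With shares this high at 29 °C, the calls alone do not set these genes apart from the rest of the transcriptome.

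**Figure D1:**
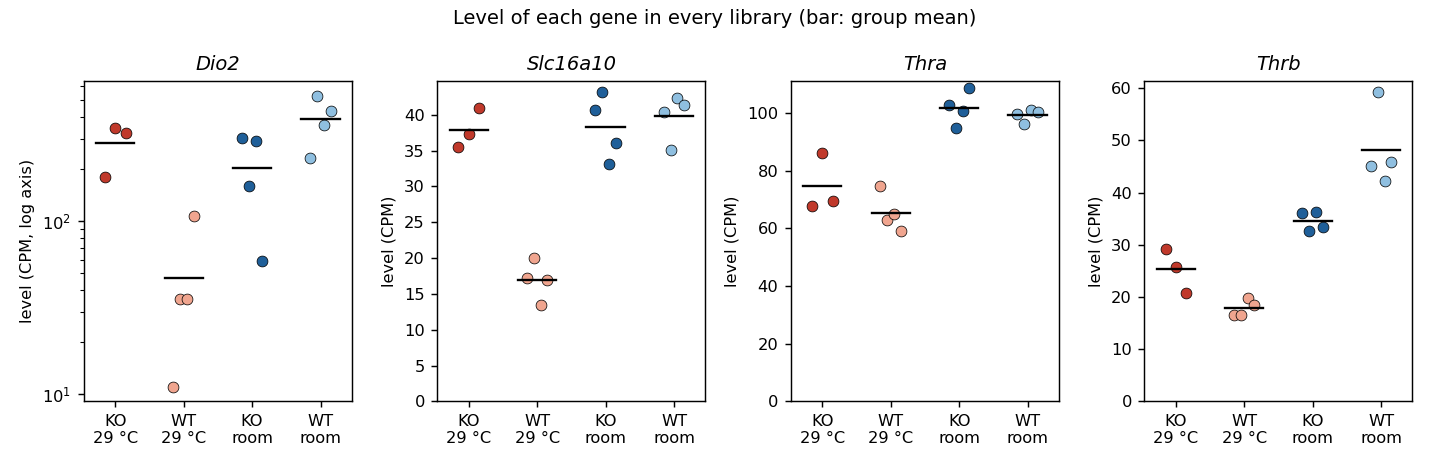
Level of Dio2, Slc16a10, Thra and Thrb in every library, in CPM (log axis for Dio2, linear from 0 for the others), with 1 point per library and a bar at the mean of each group (KO and WT at 29 °C, KO and WT at room temperature). Slc16a10 in WT at 29 °C (13.52 to 19.96 CPM) lay below all 11 other libraries, and the 4 Thrb groups did not overlap on this TMM-scaled level.

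Dio2, the activating deiodinase, had 179.2, 346.9 and 321.0 CPM in KO at 29 °C, against 11.06, 35.47, 35.61 and 106.8 CPM in WT at 29 °C. It had 301.5, 158.9, 288.5 and 58.84 CPM in KO at room temperature, against 232.2, 530.6, 356.9 and 434.1 CPM in WT at room temperature. The 29 °C groups did not overlap, while the room-temperature groups did. Means were 282.4 ± 90.28 CPM in KO (SD, n = 3) and 47.23 ± 41.34 CPM in WT at 29 °C (n = 4), and 201.9 ± 115.1 CPM in KO (n = 4) and 388.5 ± 126.1 CPM in WT at room temperature (n = 4). Ranked by mean, WT at room temperature came first, then KO at 29 °C, KO at room temperature and WT at 29 °C, and each group overlapped its neighbour in that order.

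The Dio2 fold change between KO and WT was 2.58 ± 0.69 at 29 °C on the log2 scale (95% interval 1.07 to 4.09, adjusted p = 0.00984, edgeR). It was -0.94 ± 0.63 at room temperature (interval -2.32 to 0.43, adjusted p = 0.618). Between 29 °C and room temperature it was 0.48 ± 0.67 in KO (interval -0.98 to 1.95, adjusted p = 0.584) and -3.04 ± 0.68 in WT (interval -4.52 to -1.56, adjusted p = 0.0017). The interaction, the genotype effect at 29 °C minus that at room temperature, was 3.53 ± 0.93 (adjusted p = 0.0154), where 28.3% of all genes were called (16.0% with a positive and 12.3% with a negative value). The KO effect at 29 °C and the temperature effect in WT share the 4 WT libraries at 29 °C.

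The Dio2 call at 29 °C was kept when any single library was left out, with log2 fold changes from 2.25 to 3.36, the highest without WT at 29 °C replicate 4. Without the 3 libraries with muscle transcripts, which leaves KO at 29 °C replicate 1 alone and assumed to vary like the other groups, the KO fold change was 1.74 (adjusted p = 0.244) and the interaction 2.69 (adjusted p = 0.164). KO replicate 1, the KO library with the least muscle transcript, had the lowest Dio2 of its group at 179.2 CPM, above the highest WT value at 29 °C (106.8 CPM); the part of muscle tissue in the result was not tested. Fitted on the 29 °C libraries alone, the fold change was 2.54 (adjusted p = 0.0509). At room temperature the 2 KO libraries with the least Dio2, replicates 4 (58.84 CPM) and 2 (158.9 CPM), also had the least Ucp1 in their group, 4778 and 4953 CPM against 9644 and 8630 CPM in replicates 1 and 3. Leaving out these 2 libraries, the lowest of their group, raises its Dio2 mean by construction and so lowers the interaction. Without them the Dio2 interaction was 2.98 (adjusted p = 0.0549). In the GENCODE annotation Dio2 shares 100 exonic bases with Gm26512, a long noncoding RNA on the opposite strand with 0.763 to 1.76 CPM. The RefSeq start site used for the printed window lies further upstream than the GENCODE one, and the overlap was not measured for it. The sources used here do not say whether counting used strand.

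Slc16a10, the carrier Mct10, had 35.54, 37.34 and 40.90 CPM in KO at 29 °C, against 17.20, 19.96, 13.52 and 16.91 CPM in WT at 29 °C. It had 40.60, 43.22, 33.16 and 36.12 CPM in KO at room temperature, against 40.33, 35.13, 42.36 and 41.35 CPM in WT at room temperature. WT at 29 °C was the low group, and the other 3 groups overlapped at means of 37.93 ± 2.73 CPM in KO at 29 °C, 38.27 ± 4.497 CPM in KO at room temperature and 39.79 ± 3.22 CPM in WT at room temperature, against 16.90 ± 2.64 CPM in WT at 29 °C (SD). The KO to WT fold change at 29 °C was 1.17 ± 0.12 on the log2 scale, or 2.24-fold (interval 0.91 to 1.42, adjusted p = 2.93e-06, edgeR). In WT, 29 °C housing went with a change of -1.24 ± 0.12 (adjusted p = 1.17e-07). In KO the temperature difference was -0.01 ± 0.12, with an interval of -0.27 to 0.24 (adjusted p = 0.94). The genotype difference at room temperature was -0.06 ± 0.11 (interval -0.30 to 0.18, adjusted p = 0.899). The interaction was 1.22 ± 0.17 (adjusted p = 9.28e-05). Without the 3 libraries with muscle transcripts the 29 °C fold change was 1.09 (adjusted p = 0.000562).

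Thra, which encodes TRα and its splice variants, had 67.89, 86.18 and 69.61 CPM in KO at 29 °C, against 74.54, 62.77, 65.07 and 59.16 CPM in WT at 29 °C. It had 102.8, 94.66, 100.8 and 108.6 CPM in KO at room temperature, against 99.70, 96.12, 101.2 and 100.2 CPM in WT at room temperature. The genotypes overlapped at each temperature, and on the TMM-scaled level every 29 °C library lay below every room-temperature library. Without the TMM factors this order did not hold throughout. KO at 29 °C replicate 2 had 2294.35 of 24112614 counts, a larger share than the 2245.06 of 26789246 in KO at room temperature replicate 2. Thra was lower at 29 °C in both genotypes, at -0.45 ± 0.10 in KO (adjusted p = 0.00165) and -0.60 ± 0.09 in WT (adjusted p = 2.17e-05, edgeR), and the interaction was 0.15 ± 0.13 (interval -0.13 to 0.44, adjusted p = 0.42). The genotype difference was 0.19 ± 0.10 at 29 °C (interval -0.02 to 0.40, adjusted p = 0.129) and 0.03 ± 0.09 at room temperature (interval -0.16 to 0.23, adjusted p = 0.929). Without WT at 29 °C replicate 1, the highest of its group, the 29 °C difference was 0.25 (adjusted p = 0.0434).

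Thra counts carry a limit of assignment. The 3′ end of Thra overlaps Nr1d1, which encodes the circadian repressor REV-ERBα and lies on the opposite strand at chr11:98767932-98775333, over 1075 bases, 263 of them exonic in both genes. These are 5.70% of the exon bases of Thra and 8.55% of those of Nr1d1. Both genes had estimated counts with decimals in 15 of 15 libraries, and their sum was whole (within 0.005) in 15 of 15, so reads were split between them by estimate, while Dio2, Slc16a10 and Thrb had whole counts in all 15. Thra took 52.1 to 69.8% of the summed counts in KO and 76.0 to 87.0% in WT at 29 °C, and 43.4 to 49.7% in KO and 40.8 to 48.5% in WT at room temperature. Nr1d1 itself had 36.18, 79.34 and 30.16 CPM in KO at 29 °C, against 23.59, 16.54, 10.62 and 8.838 CPM in WT at 29 °C, and at least 101.9 CPM in every room-temperature library. How far shared reads moved the Thra values was not tested.

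Thrb, which encodes TRβ, was the receptor gene called between genotypes at 29 °C. It had 29.19, 25.77 and 20.83 CPM in KO at 29 °C, against 16.54, 16.57, 19.81 and 18.40 CPM in WT at 29 °C. It had 36.03, 32.59, 36.18 and 33.40 CPM in KO at room temperature, against 45.13, 59.22, 42.27 and 45.93 CPM in WT at room temperature. On the TMM-scaled level no 2 of the 4 groups overlapped, and KO lay above WT at 29 °C and below WT at room temperature. Without the TMM factors the KO groups overlapped. KO at 29 °C replicate 1 had 1228 of 38800967 counts, a larger share than the 773 of 26789246 in KO at room temperature replicate 2. Means were 25.27 ± 4.20 CPM in KO and 17.83 ± 1.58 CPM in WT at 29 °C, and 34.55 ± 1.83 CPM in KO and 48.14 ± 7.56 CPM in WT at room temperature (SD).

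The Thrb fold change between KO and WT was 0.50 ± 0.13 at 29 °C (1.42-fold, adjusted p = 0.00416, edgeR). At room temperature it was -0.48 ± 0.12 (interval -0.72 to -0.23), with an unadjusted p of 0.000787 and an adjusted p of 0.114 in edgeR, and DESeq2 gave -0.49 with an adjusted p of 0.0193. This gene was the 1 member under an unadjusted p of 0.05 at room temperature, where 1678 of 15083 genes were, and the 1 member DESeq2 called. Thrb was lower at 29 °C, at -0.45 ± 0.13 in KO (adjusted p = 0.00871) and at -1.43 ± 0.12 in WT (adjusted p = 3.25e-08). The interaction was 0.98 ± 0.17 (interval 0.62 to 1.35, adjusted p = 0.000662). The temperature difference in KO was -0.33 (adjusted p = 0.0572) without KO at 29 °C replicate 3 and -0.32 (adjusted p = 0.196) without the 3 libraries with muscle transcripts.

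**Figure D2:**
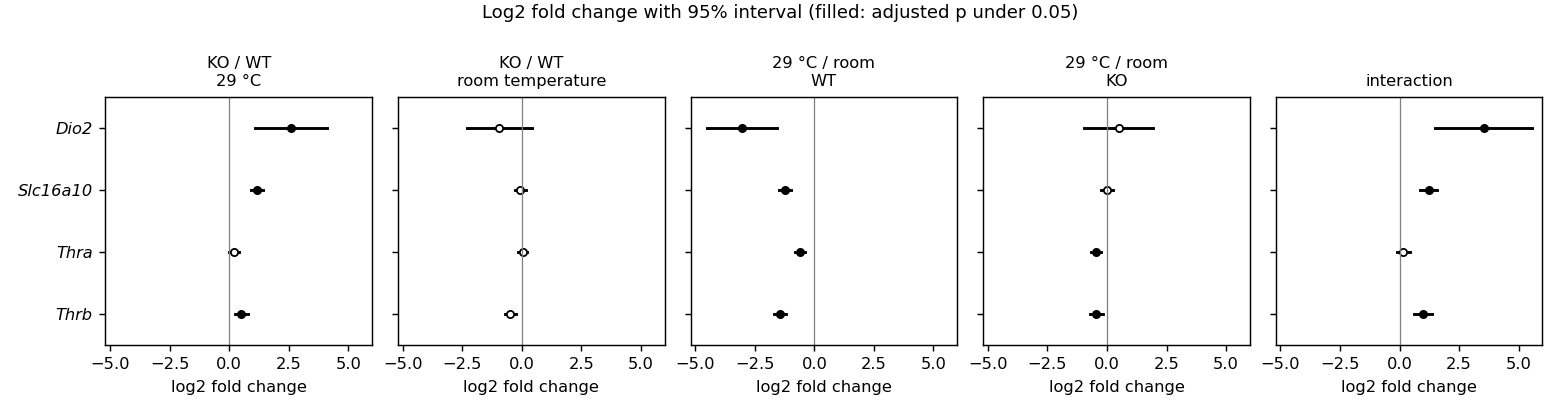
Log2 fold change (x axis) of each member in the 5 comparisons, with the 95% interval as a line and filled points for an adjusted p under 0.05. Dio2 had the widest intervals, and Thra was called for temperature in both genotypes and in neither comparison of genotypes.

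The Thrb to Thra ratio within a library, in which library size cancels, was compared on a log2 scale with a pseudocount of 1. It averaged -1.57 ± 0.30 in KO and -1.87 ± 0.22 in WT at 29 °C, and -1.56 ± 0.10 in KO and -1.06 ± 0.25 in WT at room temperature (SD). The difference between genotypes was 0.31 at 29 °C (exact permutation test, two-sided, p = 0.343) and -0.50 at room temperature (exact permutation p = 0.0286). Between temperatures it was -0.01 in KO (exact permutation p = 0.971) and -0.81 in WT (exact permutation p = 0.0286). The value 0.0286 is the smallest that 70 arrangements of 4 against 4 allow, and 35 arrangements of 3 against 4 allow no less than 0.0571. Adjusted over the 4 comparisons, the permutation p was 0.457, 0.0571, 0.971 and 0.0571 in that order. The ratio carries the same limit of assignment as Thra.

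Levels can be set between genes only per length. On the scale of CPM per kilobase of exon, Dio2 averaged 48.6 in KO and 8.12 in WT at 29 °C, and 34.7 in KO and 66.8 in WT at room temperature. Thra averaged 16.2 in KO and 14.2 in WT at 29 °C, and 22.0 in KO and 21.5 in WT at room temperature. Slc16a10 averaged 5.16 in KO and 2.30 in WT at 29 °C, and 5.20 in KO and 5.41 in WT at room temperature. Thrb averaged 3.41 in KO and 2.41 in WT at 29 °C, and 4.67 in KO and 6.50 in WT at room temperature. Thra was thus above Thrb per length in all 4 groups, and Dio2 was above Thra in all groups except WT at 29 °C. Annotated exons that are not used in this tissue lower such a level.

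In bulk tissue, fewer cells of a type and less RNA per cell cannot be told apart. Between KO and WT at 29 °C all 8 endothelial markers were lower, and they summed to 0.0637 to 0.0948% of counts in KO against 0.140 to 0.185% in WT. Of the 8 lymphocyte markers 7 were higher, at 0.00219 to 0.00298% in KO against 0.000549 to 0.000844% in WT. Of the 8 macrophage markers 3 were higher and 5 not called, and the 8 summed to 0.0371 to 0.0531% in KO against 0.0219 to 0.0312% in WT. The sum leans on Lyz2, the most abundant, at means of 192.3 CPM in KO and 94.88 CPM in WT. Adgre1 averaged 9.57 CPM in both, Csf1r 24.79 CPM in KO and 23.61 CPM in WT, and Mrc1 22.16 CPM in KO and 26.89 CPM in WT. Of the 8 brown adipocyte markers, which include Ucp1, 5 were higher. Among all genes 24.7% were higher and 20.0% lower in this comparison. Mitochondrially encoded genes took 25.8 to 26.9% of counts in KO and 30.2 to 41.6% in WT at 29 °C, and 22.7 to 25.2% in KO and 25.2 to 27.4% in WT at room temperature. Between 29 °C and room temperature the endothelial markers called higher were 4 of 8 in KO and 8 of 8 in WT, the macrophage markers 8 and 7 of 8, and the lymphocyte markers 8 and 4 of 8. The brown adipocyte markers called lower at 29 °C were 2 of 8 in KO and 8 of 8 in WT. Among all genes 24.3% were higher and 21.7% lower at 29 °C in KO, and 35.9% higher and 32.8% lower in WT. At room temperature the summed endothelial markers were 0.0437 to 0.0615% of counts in KO and 0.0508 to 0.0612% in WT, the macrophage markers 0.00628 to 0.0139% in KO and 0.00719 to 0.01% in WT, and the lymphocyte markers 0.000262 to 0.000552% in KO and 0.000238 to 0.000335% in WT. The part of these differences in the member genes was not tested, and counting without the mitochondrially encoded genes changed no member's call.

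The wider pathway was described with 10 lists of 53 tested genes that are not members. Of these 53, 22 were higher and 7 lower in KO than in WT at 29 °C, where 44.7% of all genes were called, and 16 were higher and 3 lower in the interaction, against 28.3% of all genes. Between 29 °C and room temperature 5 were higher and 17 lower in KO, against 46.0% of all genes called, and 9 were higher and 34 lower in WT, against 68.8%. Between KO and WT at room temperature 0 were higher and 1 lower, against 0.239%. At room temperature 7 of the 53 fell under 0.05 before adjustment, and DESeq2 called 1. The median log2 fold change of all tested genes lay between 0.01 and 0.06 in each comparison.

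**Figure D3:**
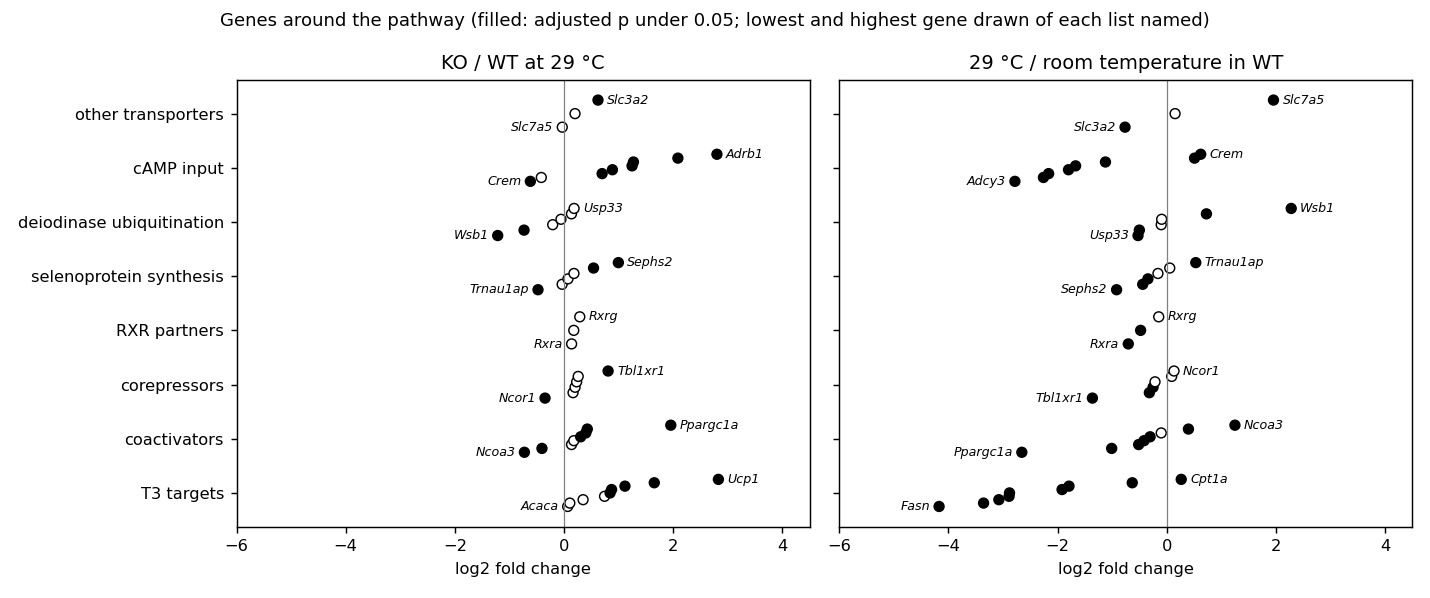
Log2 fold change (x axis) of genes of 8 pathway lists between KO and WT at 29 °C (left) and between 29 °C and room temperature in WT (right, sharing the WT libraries at 29 °C), with filled points for an adjusted p under 0.05 (edgeR), a line at 0 and the lowest and highest gene drawn of each list named. On the left, 6 genes of the cAMP arm lie between Prkacb at 0.70 and Adrb1 at 2.80, and Wsb1 at -1.22 lies lowest of the genes drawn.

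Among the other carriers, 1 of 4 tested genes was called at 29 °C between genotypes, against 44.7% of all genes. It was Slc3a2, the heavy chain shared by the amino acid carriers Lat1 and Lat2, at 0.62 ± 0.18 (adjusted p = 0.0102). Without KO at 29 °C replicate 3 the Slc3a2 value was 0.39 (adjusted p = 0.0773), and without the 3 libraries with muscle transcripts it was 0.32 (adjusted p = 0.361). Slc7a5, the light chain of Lat1, was higher at 29 °C in both genotypes, by 1.78 ± 0.49 in KO (adjusted p = 0.0075) and 1.95 ± 0.47 in WT (adjusted p = 0.00163), at levels of no more than 2.22 CPM. Without KO at room temperature replicates 2 and 4 the Slc7a5 value in KO was 1.41 (adjusted p = 0.0854).

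Of the other deiodinase and binding genes, Dio1, Dio3, which inactivates thyroid hormone, and Crym, a cytosolic T3-binding protein, did not pass the filter. Their highest group means were 0.016 CPM for Dio1, 0.087 CPM for Dio3 and 0.22 CPM for Crym. Dio2 was therefore the 1 deiodinase gene of the 3 with enough counts to test.

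The Dio2 protein is marked with ubiquitin and degraded when it meets its substrate. Wsb1, the substrate adaptor of the ligase that does this, had 39 ± 9.07 CPM in KO and 90.63 ± 22.49 CPM in WT at 29 °C, and 12.94 ± 1.41 CPM in KO and 18.68 ± 3.44 CPM in WT at room temperature (SD). Its genotype difference was -1.22 ± 0.20 at 29 °C (adjusted p = 0.00018), and it was higher at 29 °C by 1.59 ± 0.20 in KO (adjusted p = 1.81e-05) and by 2.28 ± 0.19 in WT (adjusted p = 5.39e-08). Ube2g2, a ubiquitin-conjugating enzyme, was lower in KO at 29 °C, at -0.73 ± 0.12 (adjusted p = 0.000108). The other 4 tested genes of this list, Cul5, Rbx1 and the deubiquitinases Usp20 and Usp33, were not called between genotypes at 29 °C, and the list's median was -0.13. Of 6 genes of selenoprotein synthesis, which place the selenocysteine in Dio2, 2 were higher and 1 lower in KO at 29 °C. Among all genes 24.7% were higher and 20.0% lower in that comparison. Sephs2, which makes the selenium donor, was at 0.99 ± 0.15 (adjusted p = 8e-05) and Trnau1ap, a tRNA-binding protein, at -0.48.

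Noradrenaline reaches Dio2 through adrenergic receptors, cAMP and protein kinase A. Of 9 tested genes of this arm, 7 were higher and 1 lower in KO than in WT at 29 °C. Among all genes 24.7% were higher and 20.0% lower in that comparison. In WT, 2 of the 9 were higher and 7 lower at 29 °C than at room temperature, with a median of -1.67. There 35.9% of all genes were higher and 32.8% lower. Adrb1, the β1-adrenergic receptor, had 46.93 ± 20.77 CPM in KO and 6.72 ± 2.61 CPM in WT at 29 °C (SD), a difference of 2.80 ± 0.39 (adjusted p = 9.56e-05). Adrb3, the β3 receptor of adipocytes, differed by 1.27 ± 0.25 (adjusted p = 0.000989), and by 0.61 (adjusted p = 0.106) without the 3 libraries with muscle transcripts. Adcy3, an adenylyl cyclase that makes cAMP, had 160.4 ± 19.45 CPM in KO and 37.80 ± 5.07 CPM in WT at 29 °C (SD), a difference of 2.09 ± 0.20 (adjusted p = 2e-06). Its estimated counts had decimals in every library, so some reads were assigned to Adcy3 by estimate, with an effect that was not tested. The protein kinase A subunits Prkar2b, Prkaca and Prkacb differed by 1.25, 0.89 and 0.70. Crem, whose inducible product represses cAMP response elements, was lower in KO, at -0.62 ± 0.18 (adjusted p = 0.0109). At room temperature none of the 9 was called between genotypes by edgeR or DESeq2, and 1 had an unadjusted p under 0.05.

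Thyroid receptors work with retinoid X receptors, corepressors and coactivators. None of the 3 retinoid X receptor genes was called between genotypes at 29 °C by edgeR or DESeq2, and 1 (Rxrg, at 0.29 ± 0.13) had an unadjusted p under 0.05. Rxra was lower at 29 °C in both genotypes, at -0.66 ± 0.11 in KO (adjusted p = 0.000122) and -0.71 ± 0.10 in WT (adjusted p = 7.51e-06). Of 6 corepressor genes 1 was higher and 1 lower in KO at 29 °C, against 24.7% and 20.0% of all genes. The higher one was Tbl1xr1, a subunit of the NCoR complex, at 0.81 ± 0.12 (adjusted p = 7.26e-05). Of 8 coactivator genes 4 were higher and 2 lower, against 24.7% and 20.0% of all genes. Of these 6 calls, that of Med1 was lost without KO at 29 °C replicate 2, WT at 29 °C replicate 1 or 3 or KO at room temperature replicate 3, that of Crebbp without KO at 29 °C replicate 1 or 2 or WT at 29 °C replicate 3 or 4, and that of Kat2b without KO at 29 °C replicate 1. Without the 3 libraries with muscle transcripts Med1 was at 0.14 (adjusted p = 0.57) and Kat2b at 0.41 (adjusted p = 0.0751). Ncoa1 was at 0.43 ± 0.10 (adjusted p = 0.00304; 0.37 with an adjusted p of 0.0527 without the 3 libraries with muscle transcripts) and Ncoa3 at -0.73 ± 0.17 (adjusted p = 0.00315). Both belong to the p160 family, and they differed in opposite directions. Ppargc1a, a coactivator of mitochondrial genes, was at 1.96 ± 0.43 (adjusted p = 0.00277), and at 1.40 (adjusted p = 0.0949) without those 3 libraries.

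Of 9 genes known to respond to T3, 5 were higher and none lower in KO than in WT at 29 °C. The list's median was 0.84, and 44.7% of all genes were called, 24.7% higher and 20.0% lower. In WT, where 32.8% of all genes were lower and 35.9% higher at 29 °C, 8 of the 9 were lower and 1 higher. The list's median there was -2.88. The 1 higher gene, Cpt1a, was at 0.26 (adjusted p = 0.0466), was not called by DESeq2 (adjusted p = 0.0696) and was lost in most other settings. The 5 were Ucp1 at 2.83 ± 0.24, the mitochondrial glycerol phosphate dehydrogenase Gpd2 at 1.65 ± 0.13, malic enzyme Me1, Klf9 and Hr. The calls of Me1, Klf9 and Hr were each lost without KO at 29 °C replicate 1, at 0.81, 0.97 and 0.61 (adjusted p = 0.103, 0.0515 and 0.0952), against 1.12, 0.87 and 0.84 with all libraries. The call of Me1 was also lost without WT at 29 °C replicate 3 or 4, and that of Klf9 without KO at 29 °C replicate 2 or 3, WT at 29 °C replicate 1, 2 or 3, or KO at room temperature replicate 3 (0.65 to 0.90). Without the 3 libraries with muscle transcripts Klf9 was at 0.46 (adjusted p = 0.513). Gpd2 had 502.8 ± 57.76 CPM in KO and 160.0 ± 28.30 CPM in WT at 29 °C, and 1075 ± 27.70 CPM in KO and 1185 ± 94.41 CPM in WT at room temperature (SD), with an interaction of 1.79 ± 0.17 (adjusted p = 8.45e-06). The genes of fat synthesis on the list were low at 29 °C in both genotypes. Thrsp had 1209 ± 121.1 CPM in KO and 949.6 ± 188.1 CPM in WT at 29 °C, against 4600 ± 1480 CPM in KO and 3288 ± 532.0 CPM in WT at room temperature (SD), with an interaction of -0.14 ± 0.29 (interval -0.75 to 0.48, adjusted p = 0.766). Acaca and Fasn, which make fatty acids, were lower at 29 °C, at -2.99 ± 0.45 and -3.77 ± 0.66 in KO and at -2.88 ± 0.40 and -4.17 ± 0.60 in WT, and their interactions were -0.11 ± 0.55 (interval -1.29 to 1.07) and 0.40 ± 0.77 (interval -1.27 to 2.08). Cpt1a, the entry step of fatty acids into mitochondria, was the third listed gene called in the interaction, at 0.52 ± 0.17 (adjusted p = 0.0264), a call lost without WT at room temperature replicate 2, 3 or 4, KO at room temperature replicate 4 or KO at 29 °C replicate 1. These genes answer to many signals besides T3, and hormone levels are not among the data used here.

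Each receptor gene has a REV-ERB gene as its neighbour. Nr1d2, which encodes REV-ERBβ, lies 165963 bases beyond the 3′ end of Thrb on the opposite strand, with no overlap. It had 56.20, 62.96 and 52.14 CPM in KO at 29 °C, against 23.72, 22.72, 24.20 and 22.84 CPM in WT at 29 °C. It had 76.76, 52.03, 54.99 and 51.16 CPM in KO at room temperature, against 91.13, 108.3, 80.97 and 111.4 CPM in WT at room temperature. Nr1d2 was above WT at 29 °C and below WT at room temperature in every KO library, the same order as Thrb. The differences were 1.29 ± 0.14 at 29 °C (adjusted p = 3.68e-06) and -0.74 at room temperature (adjusted p = 0.0243), and the interaction was 2.03 ± 0.19 (adjusted p = 7.39e-06). The room-temperature call was lost without any 1 of WT replicates 2 and 4 and KO replicates 2 and 4, with fold changes of -0.69 to -0.67 and adjusted p from 0.0974 to 0.121. Nr1d1 differed between genotypes by 1.70 ± 0.35 at 29 °C (adjusted p = 0.0016). These are circadian genes, and the sources used here do not give the hour of tissue collection.

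**Figure D4:**
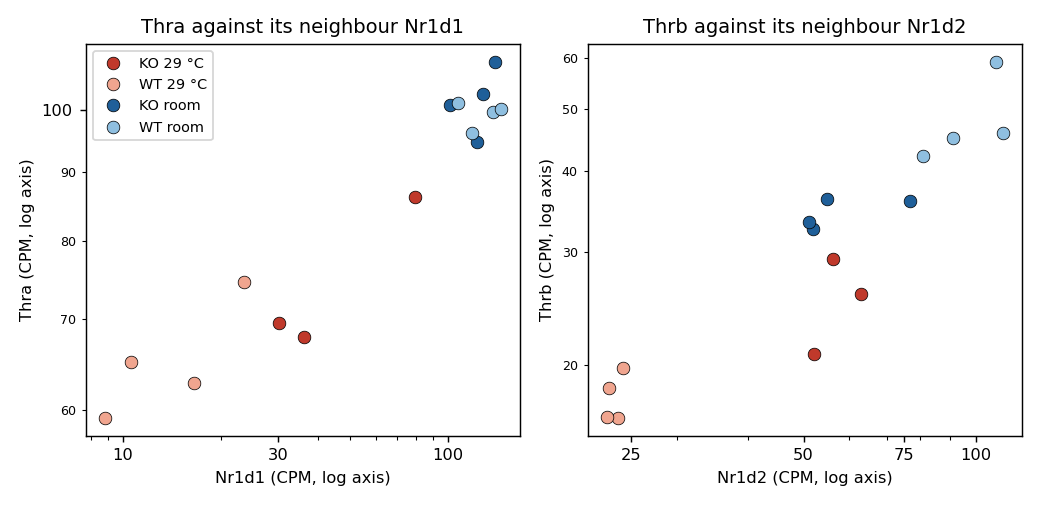
Level of each receptor gene (y axis, CPM, log scale) against its REV-ERB neighbour (x axis, CPM, log scale), 1 point per library, with Thra against Nr1d1 and Thrb against Nr1d2. Across the 15 libraries Pearson's r was 0.961 for Thra and Nr1d1 and 0.925 for Thrb and Nr1d2, all points sharing the 4 groups. Room-temperature and 29 °C libraries form separate clusters for Thra, and for Thrb the 4 groups part on the y axis while the KO groups overlap on the x axis.

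The genes whose log2 CPM followed each member most closely were taken from 11895 genes averaging 1 CPM or more, by Pearson's r over the 15 libraries. These values describe a pattern set largely by the 4 groups and carry no test. Nearest to Dio2 were Ppp1r15b (0.963), Gk (0.957), Atl2 (0.956), Sppl2a (0.949) and Trib1 (0.948). Gk, glycerol kinase, had 293.6 ± 30.77 CPM in KO and 48.87 ± 55.82 CPM in WT at 29 °C, and 224.6 ± 162.7 CPM in KO and 347.3 ± 60.73 CPM in WT at room temperature (SD). Relative to the mean, its spread was widest in WT at 29 °C and next in KO at room temperature, as for Dio2. Nearest to Slc16a10 were Tspan3 (0.974), Cdc123 (0.971), Pla2g7 (0.971), Plin1 (0.970) and Ppif (0.969). Plin1, the coat protein of lipid droplets, had 623.7 ± 94.31 CPM in KO and 159.1 ± 29.05 CPM in WT at 29 °C, and 658.3 ± 49.15 CPM in KO and 666.4 ± 24.19 CPM in WT at room temperature (SD), so WT at 29 °C was again the low group. Nearest to Thra were Trmu (0.983), Zfp113 (0.979), Klb (0.973), Wrap53 (0.972) and Narfl (0.971), and Nr1d1 ranked 21. Klb, the co-receptor for FGF21, had 19.51 ± 4.88 CPM in KO and 11.09 ± 2.32 CPM in WT at 29 °C, and 56.05 ± 4.39 CPM in KO and 48.87 ± 4.19 CPM in WT at room temperature (SD). Among the nearest to Thrb were Tmem70 (0.972), Agmo (0.972), D10Jhu81e (0.968) and Sdhd (0.965), and Nr1d2 ranked 256. Sdhd, a subunit of succinate dehydrogenase, had 461.5 ± 62.48 CPM in KO and 331.1 ± 12.13 CPM in WT at 29 °C, and 670.2 ± 37.23 CPM in KO and 798.6 ± 29.19 CPM in WT at room temperature (SD), the same order of group means as Thrb. Among the members themselves r was 0.83 for Thra and Thrb, 0.785 for Dio2 and Slc16a10, and 0.499 for Dio2 and Thra.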

How the data were processed

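RNA from mouse brown adipose tissue was sequenced in 15 libraries. Per the submitters' processing notes, STAR 2.7.10a placed the 150 bp read pairs from a BGIseq500 on mm10, RSEM 1.2.28 estimated gene counts, and the authors ran DESeq2, whose version the notes state as 1.3.40. The values deposited by the authors are RSEM expected counts for each gene symbol in each library. Decimals occur in 7.26% of entries, and all were rounded to whole counts. The annotation and the use of strand are not given in the sources used here. A spreadsheet changed 24 symbols into dates, which could not be matched.

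Genes that passed filterByExpr (by group, minimum count 10) were fitted with edgeR 4.0.16 (R 4.3.3): TMM scaling, 1 model of the 4 groups with 11 residual degrees of freedom, the robust quasi-likelihood test, and Benjamini-Hochberg adjustment within each comparison. CPM were computed with TMM-scaled library sizes, and positions and exon lengths came from GENCODE for GRCm38. Promoter sequences came from RefSeq. The within-library ratio used an exact permutation test. Alternatives were RLE size factors, no filter, a stricter filter (1 CPM in 4 libraries), a 1.5-fold limit, a replicate block, DESeq2 1.42.0, limma-voom 3.58.1, no mitochondrially encoded genes, only the libraries compared, a pseudocount of 10 for the ratio, and left-out libraries. The members, the pathway lists and these tests were chosen with earlier results of these data known. The text names the members, list genes that were called in some comparison or define their list, and the 5 genes most like each member. Some genes that these rules give are not reported here.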

Additional observations from a re-analysis of the deposited data

Results flagged for a closer look

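The genotype effect differed between 29 °C and room temperature for 3 of the 4 genes, by the interaction term of the edgeR fit. The interaction log2 fold change was 3.53 for Dio2 (adjusted p = 0.0154), 1.22 for Slc16a10 (adjusted p = 9.28e-05) and 0.98 for Thrb (adjusted p = 0.000662), and 28.3% of all genes were called in it. For Dio2 and Thrb the fitted genotype effect was positive at 29 °C and negative at room temperature, and for Slc16a10 it was -0.06 at room temperature. No single library of any group of 4 stood apart for a member gene by Dixon's criterion, and the group of 3 was not examined this way.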

How the results depend on the processing

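The calls that held under every other setting run (11 for the pairwise comparisons, 10 for the interaction) and each left-out library were those of Slc16a10 between genotypes at 29 °C and in the interaction and of Thrb in the interaction, and those of all 4 members between temperatures in WT. With a 1.5-fold limit added, 4182 genes were called between KO and WT at 29 °C and 4374 between temperatures in KO, and Thrb at 29 °C (0.50) and Thra and Thrb between temperatures in KO (-0.45 each) were no longer called. DESeq2 called 223 genes between genotypes at room temperature, Thrb among them (-0.49). With only the libraries compared, Dio2 at 29 °C was not called (2.54). Without the 3 libraries with muscle transcripts, 13 genes were called between genotypes at room temperature, 4229 at 29 °C and 4129 between temperatures in KO. In that setting Dio2 was at 1.74 between genotypes at 29 °C, -0.25 between temperatures in KO and 2.69 in the interaction, Thrb at -0.32 between temperatures in KO, and Thra at -0.038 between genotypes at 29 °C and -0.063 in the interaction. KO at room temperature replicates 2 and 4 had the least Dio2 of their group, so leaving them out lowers the Dio2 interaction by construction. Without them 5 genes were called between genotypes at room temperature, and the Dio2 interaction was 2.98. The temperature difference in KO was then -0.068 for Dio2 and 0.036 for Slc16a10. With the stricter filter the last was 0.0065. Leaving out single libraries gave 5 to 60 called genes between genotypes at room temperature, against 36 with all libraries; -0.13 to 0.0496 for Slc16a10, -0.57 to -0.33 for Thrb and -0.18 to 0.079 for the Thrb to Thra ratio between temperatures in KO; and 0.074 to 0.25 for Thra between genotypes at 29 °C. Some of these settings hold fewer libraries and others hold all of them, and why calls and values moved was not tested. Of 114 calls of other pathway genes, 25 were lost without some single library, 29 without the 3 libraries with muscle transcripts and 29 with the 1.5-fold limit, and 0 changed direction.

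Same-numbered libraries did not deviate together (correlations of deviations from -0.276 to 0.33), so replicate numbers were not taken as pairs. With a replicate block, 25 genes were called between KO and WT at room temperature, 6339 between KO and WT at 29 °C, 10270 between temperatures in WT, 6691 in KO and 4045 in the interaction, Dio2 at 29 °C was at 2.85 (adjusted p = 0.0248), and no member's call changed. Low counts were no limit for the members, whose raw counts summed to 1907 or more in every group, whereas Dio1, Dio3 and Crym had too few counts for a test.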
